A study of Mus musculus with 2 samples.

Results

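The chemokine genes Cxcl9, Cxcl10 and Cxcl16 and the receptor genes Cxcr3 and Cxcr6, 5 of the 31053 genes counted, were followed through the immune cells of a mouse brain tumour. They were taken by name, and their raw UMIs (unique molecular identifiers, each standing for 1 captured transcript) were read in both libraries, the ligands chiefly in myeloid cells and the receptors in lymphocytes. The metformin library came from C57BL/6 mice that drank water with metformin, a biguanide that inhibits mitochondrial complex I, and the control library from C57BL/6 mice that drank plain distilled water. Both groups carried an intracranial graft of GL261, a cultured mouse glioma line, and on day 20 tumour cells with high CD45, the common surface phosphatase of leukocytes, were sorted and sequenced by 10x Genomics 3' chemistry. The number, sex and age of the mice behind each library and the metformin dose are not given in the labels. Each group was 1 library, so no comparison below has a replicate check and none was tested. After filtering, 4569 metformin cells and 5373 control cells were retained, with 44088764 and 46751843 UMIs and medians of 7926 and 7295 UMIs per cell.

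CXCL9 and CXCL10 are small secreted proteins, made by cells that sense interferon, which attract lymphocytes through the receptor CXCR3. CXCL16 is made as a membrane-bound protein that can be cut loose by the proteases ADAM10 and ADAM17, and its receptor is CXCR6. In tumours, ligand-bearing macrophages and dendritic cells and receptor-bearing T cells are the known partners of both axes, and CXCR6 also marks T cells that stay in tissues.

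Cxcl9 (ENSMUSG00000029417, chr5:92321347-92328079, minus strand, mm10) and Cxcl10 (ENSMUSG00000034855, chr5:92346638-92348889, minus strand) are neighbours whose starts lie 20810 bases apart, each with up to 4 exons in GENCODE vM21. Cxcl16 (ENSMUSG00000018920) lies at chr11:70453983-70459984 on the minus strand, Cxcr3 (ENSMUSG00000050232) at chrX:101731535-101734269 on the minus strand, and Cxcr6 (ENSMUSG00000048521) at chr9:123806475-123811760 on the plus strand. Cxcl10, Cxcl16 and Cxcr6 overlap a gene on the opposite strand (Art3 over Cxcl10, Zmynd15 over Cxcl16, Fyco1 over Cxcr6), and it is not stated in the labels whether reads of such pairs were assigned by strand. The 250 bases before the starts of Cxcl9 (chr5:92328080-92328329, minus strand) and Cxcl10 (chr5:92348890-92349139, minus strand), from RefSeq on GRCm38.p6, are shown because the levels of these neighbours differ by cell class. They run 5′ to 3′, and capitals mark matches to 2 of 3 motifs searched on both strands.
Cxcl9: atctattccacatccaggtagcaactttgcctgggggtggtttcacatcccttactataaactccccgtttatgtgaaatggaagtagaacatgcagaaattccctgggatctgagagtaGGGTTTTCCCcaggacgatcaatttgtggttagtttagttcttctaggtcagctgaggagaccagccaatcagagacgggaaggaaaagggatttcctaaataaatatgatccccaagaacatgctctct
Cxcl10: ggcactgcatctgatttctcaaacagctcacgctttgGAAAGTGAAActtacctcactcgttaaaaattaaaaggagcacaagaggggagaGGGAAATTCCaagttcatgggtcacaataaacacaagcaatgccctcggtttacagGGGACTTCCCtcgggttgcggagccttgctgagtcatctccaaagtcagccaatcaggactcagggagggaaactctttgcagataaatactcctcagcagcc
The capitals in Cxcl9 are a match to the κB motif (GGGA, 4 free bases and CC, or its complement), 130 to 121 bases before the start. In Cxcl10 the first is an interferon-stimulated response element, ISRE (GAAA, 2 free bases and GAAA, or its complement), 213 to 204 bases before the start, and the other 2 are κB matches at 159 to 150 and 103 to 94 bases. Neither window held a GAS motif (TTC, 3 free bases and GAA). Among 32851 promoters of the same length, 2.98% held the ISRE letters, 17.6% the κB letters and 7.02% the GAS letters. The window before Cxcr6 held none of the 3 motifs.

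Cells were grouped by clustering into classes named by marker or leading genes, with the 5 genes kept out of the genes used to cluster. The metformin library held 1692 myeloid cells and 2606 lymphoid cells, against 2031 myeloid cells and 3133 lymphoid cells in the control library. The 3 microglial clusters made up 21.9% of metformin and 24.4% of control cells although the sort was for high CD45. P2ry12, a microglial receptor, was in 99.8% of metformin and 100% of control cells of the class named microglia, and Foxp3 in 79.7% of metformin and 75.5% of control regulatory T cells. The levels below are in CPM, the UMIs of a gene scaled to a total of 1000000 UMIs of the class in that library. Each transcript gives 1 UMI whatever its length, so no length scaling was applied. Intervals are 95% and cover counting error only, not the spread between cells or mice. A ratio is metformin over control, and a gene was called higher or lower in a class by a rule of size: the ratio had to reach 1.5 in either direction with an interval that left out 1, on 50 CPM and 20 UMIs or more in one of the libraries, in classes of 50 cells or more in both. Genes and classes that reached these minimum levels and cell numbers are called above the floor. The share of all genes above the floor that met this rule in a class is given beside each call. In these sums, fewer cells making a transcript and less transcript per cell cannot be told apart.

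The 3 ligands shared some of their highest myeloid classes and, over all myeloid cells together, none met the rule. Cxcl9 had 7508 UMIs in metformin myeloid cells and 6273 in control myeloid cells, a level of 417 CPM in metformin and 338 CPM in control (ratio 1.23, interval 1.19 to 1.27). Cxcl10 stood at 637 CPM in metformin and 588 CPM in control (ratio 1.08, interval 1.06 to 1.11). Cxcl16 stood at 378 CPM in metformin and 326 CPM in control (ratio 1.16, interval 1.12 to 1.198), but at a fixed mix of classes its ratio was 0.978. So 0 of the 3 ligands were called over all myeloid cells, where the rule called 1.67% of the 3057 genes above the floor. Within single classes 4 calls were made for Cxcl9, 4 for Cxcl10 and 0 for Cxcl16.

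**Figure D1:**
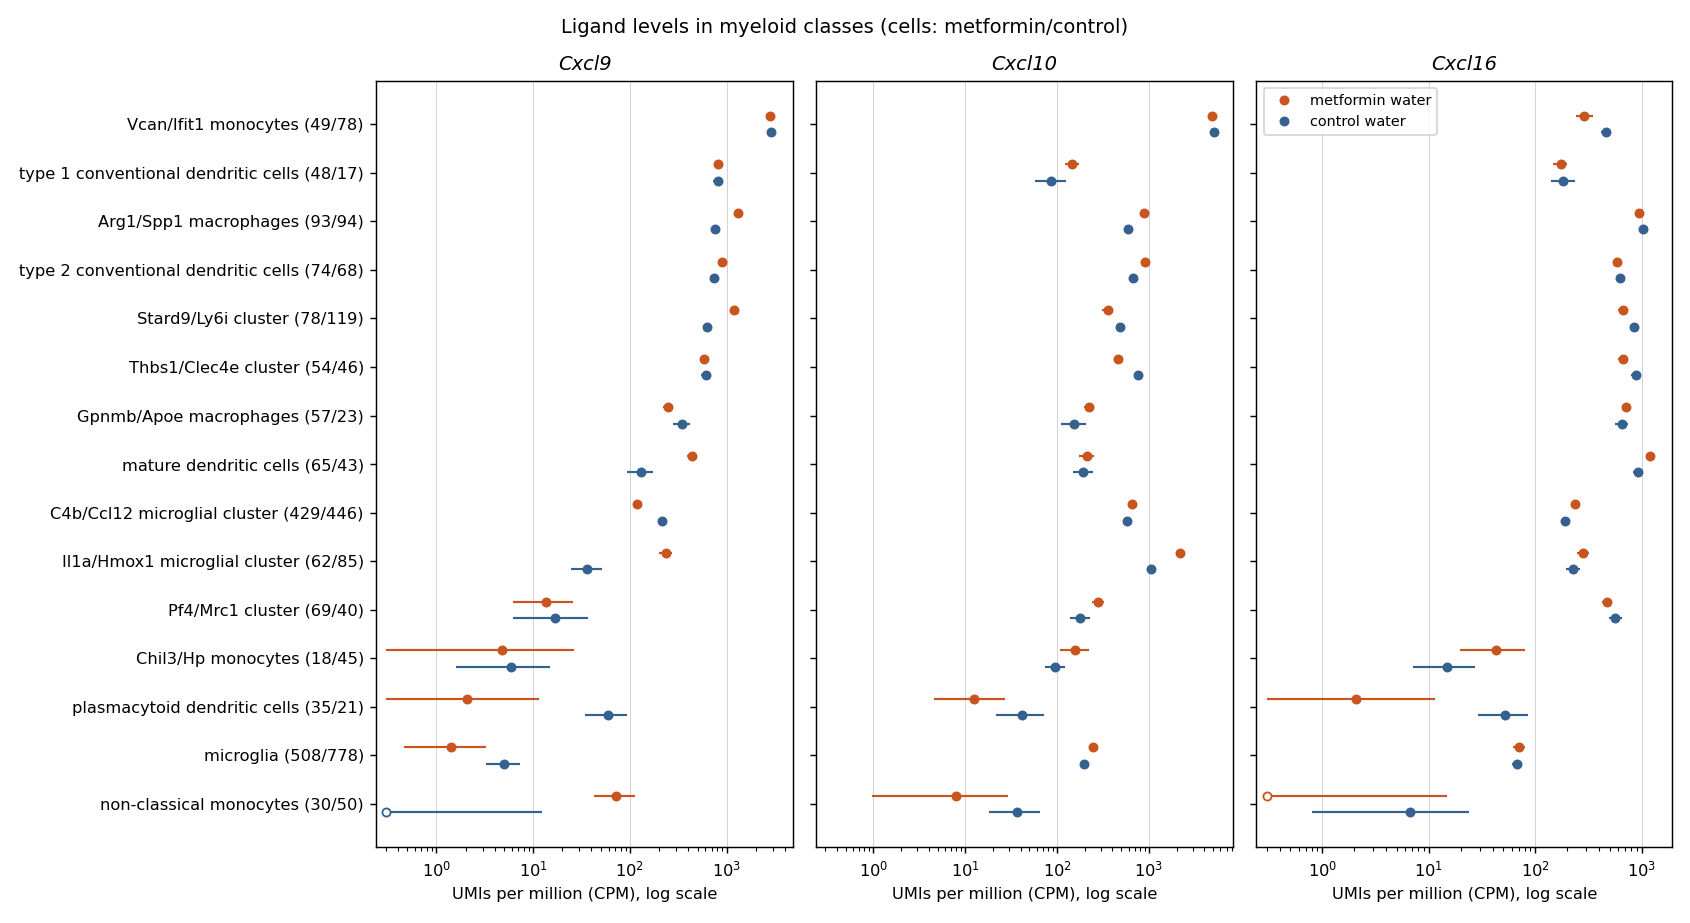
Levels of Cxcl9, Cxcl10 and Cxcl16 in each myeloid class with at least 15 cells in each library, in CPM on a log axis, metformin in orange and control in blue, with 95% counting intervals as bars and open circles for 0 UMIs drawn at the axis floor. Cxcl9 stands at 1.41 and 4.98 CPM in microglia and at 2781 and 2890 CPM in Vcan/Ifit1 monocytes (metformin and control), while Cxcl16 in Arg1/Spp1 macrophages stands at 953 and 1034 CPM.

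Cxcl9 was high in Vcan/Ifit1 monocytes, Arg1/Spp1 macrophages, the Stard9/Ly6i cluster and conventional dendritic cells, and almost missing from homeostatic microglia. The Thbs1/Clec4e cluster held 418 Cxcl9 UMIs in 54 metformin cells and 324 in 46 control cells. The monocyte gene Ly6c2 was in 88.9% of its metformin cells and 93.5% of its control cells. Cxcl9 was low in Chil3/Hp monocytes, with 1 UMI in 18 metformin cells and 4 in 45 control cells. Its highest level was in Vcan/Ifit1 monocytes, which were led by interferon-response genes, at 2781 CPM in 49 metformin cells and 2890 CPM in 78 control cells (ratio 0.962). That class also had Cxcl10 as its first leading gene, so its Cxcl10 level is a description of the class. The Arg1/Spp1 macrophages, named for arginase 1 and osteopontin, had 1313 CPM in metformin and 754 CPM in control. Microglia with the full homeostatic markers P2ry12 and Tmem119 had 5 Cxcl9 UMIs in 508 metformin cells and 27 in 778 control cells. In the order of the 20 classes with enough cells, the values of the 2 libraries overlapped for 17 of 19 neighbouring pairs. Many of these pairs were near background, since from B cells down no class exceeded 7.46 CPM in either library. The Stard9/Ly6i cluster, at 620 CPM or more, was set apart from the C4b/Ccl12 microglial cluster next in order, at 212 CPM or less.

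Where Cxcl9 transcripts came from differed between the libraries. Arg1/Spp1 macrophages, 2.04% of metformin cells and 1.75% of control cells, held 26.5% of metformin Cxcl9 UMIs and 20.1% of control Cxcl9 UMIs. Vcan/Ifit1 monocytes, 1.07% of metformin cells and 1.45% of control cells, held 13.5% in metformin and 30.7% in control. Type 1 conventional dendritic cells (cDC1), which present antigen to CD8 T cells, held 9.19% in metformin and 4.22% in control, with 48 metformin cells and 17 control cells. Named myeloid classes together held 87.8% of metformin Cxcl9 UMIs and 96.2% of control Cxcl9 UMIs. Most of the rest lay in unnamed clusters, with 10.0% in metformin and 3.14% in control.

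**Figure D2:**
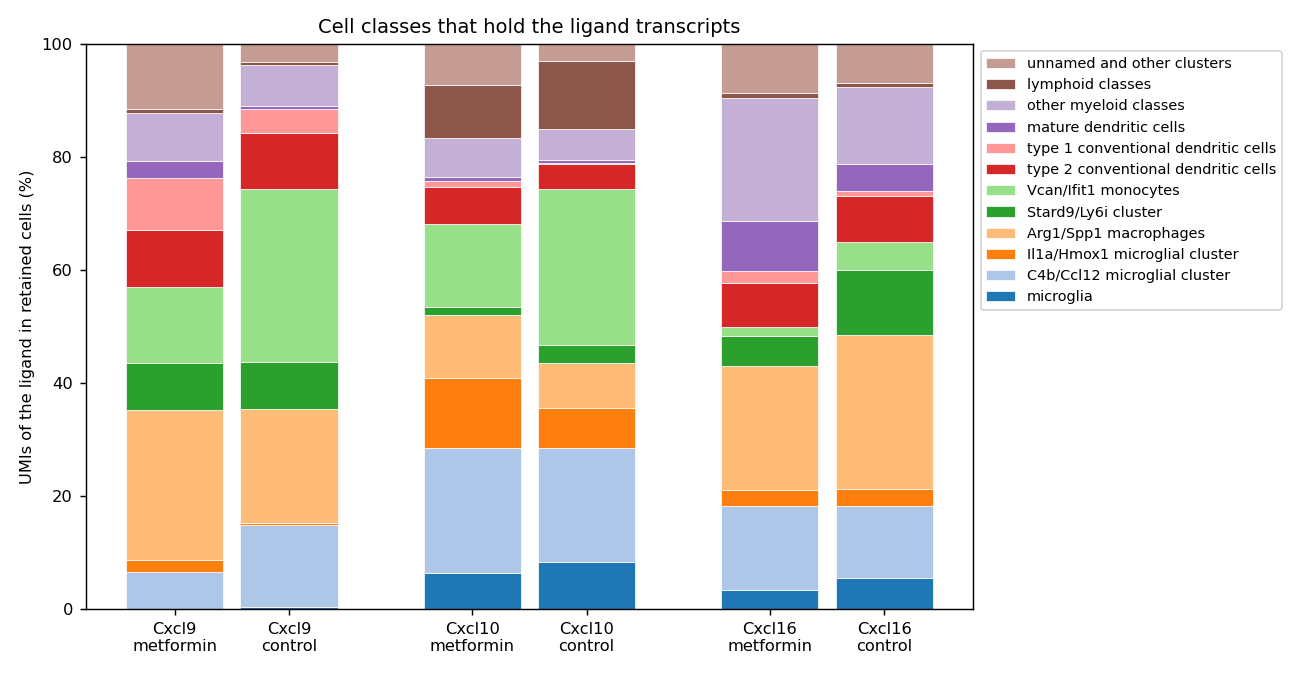
Share of each ligand's UMIs by cell class, in percent of its UMIs in retained cells, as stacked bars with the metformin bar left of the control bar. For Cxcl9, Arg1/Spp1 macrophages hold 26.5% in metformin and 20.1% in control, and for Cxcl10 the lymphoid classes hold 9.32% in metformin and 12.02% in control.

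By the rule, Cxcl9 was higher in 3 and lower in 1 of the 5 classes above the floor. In Arg1/Spp1 macrophages it had 2268 UMIs in 93 metformin cells and 1307 UMIs in 94 control cells (ratio 1.74, interval 1.63 to 1.86; 7.19% of genes were called). The ratio was 1.64 without the 10 richest cells of each library, and the share of cells with a UMI, after thinning each cell to 2000 UMIs, was 51.6% in metformin and 40.4% in control. The macrophage markers of this class summed to 40095 CPM in metformin and 47156 CPM in control, with 3 of 11 higher in metformin, and their part in the Cxcl9 difference was not tested. In the Stard9/Ly6i cluster, led by Stard9 and Ly6i and with the monocyte gene Ly6c2 in 73.1% of metformin cells and 71.4% of control cells, Cxcl9 stood at 1180 CPM in metformin and 620 CPM in control (ratio 1.90; 7.94% called). Without the 10 richest cells that ratio was 1.03. Its monocyte markers summed to 4744 CPM in metformin and 6815 CPM in control, with 8 of 8 lower in metformin, and their part was not tested.

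The remaining Cxcl9 calls were in microglial clusters and rested on a few cells. In the C4b/Ccl12 microglial cluster, named for complement C4b and a CC chemokine, Cxcl9 stood at 119 CPM in metformin and 212 CPM in control (ratio 0.559; 1.58% called). It was detected in 11.9% of 429 metformin cells and 11.2% of 446 control cells, and 1 cell held 21.01% of the metformin UMIs and 24.6% of the control UMIs. Without the 10 richest cells the ratio was 0.798, which is no call. The monocyte markers of this cluster summed to 96.9 CPM in metformin and 42.2 CPM in control, with 4 of 8 higher in metformin and none at 0 in both libraries, and their part was not tested. In the Il1a/Hmox1 microglial cluster, named for interleukin 1α and haem oxygenase 1, the level was 234 CPM in metformin and 36.2 CPM in control (ratio 6.46; 8.9% called). That class had 181 metformin UMIs, of which 1 cell held 148, and 31 control UMIs, of which 1 cell held 21. Dropping the richest cell of each library left a ratio of 3.68. The T cell markers of this class summed to 127 CPM in metformin and 33.9 CPM in control, with 5 of 5 higher in metformin and none at 0 in both, and their part in its Cxcl9 and Cxcl10 values was not tested.

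No dendritic cell class was called for Cxcl9. Type 2 conventional dendritic cells (cDC2), which present antigen mainly to CD4 T cells, had 884 CPM of Cxcl9 in metformin and 746 CPM in control (ratio 1.19, interval 1.07 to 1.32). The cDC2 ratio was 0.982 under a stricter cell filter and 0.815 (interval 0.671 to 0.989) without the 10 richest cells of each library, so its direction turned. cDC1 had 805 CPM in metformin and 818 CPM in control, with 1 control cell holding 69.8% of the control UMIs. Mature dendritic cells, the Ccr7-bearing form that moves to lymph nodes, had 437 CPM in 65 metformin cells and 129 CPM in 43 control cells, with 1 metformin cell holding 50.2%. The cDC1 and mature classes had too few cells for a call.

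Cxcl10 was spread more widely than Cxcl9 and reached far into microglia. The 3 microglial clusters together held 40.9% of metformin Cxcl10 UMIs and 35.5% of control Cxcl10 UMIs, against 8.69% of metformin and 15.3% of control Cxcl9 UMIs. Its highest level was again in Vcan/Ifit1 monocytes, at 4859 CPM in metformin and 5106 CPM in control. Among the classes with enough cells, the Il1a/Hmox1 microglial cluster came first. There Cxcl10 stood at 2185 CPM in metformin and 1061 CPM in control (ratio 2.06, interval 1.90 to 2.24; 8.9% of genes were called).

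This was the 1 myeloid class in which Cxcl10 was called, out of 6 classes above the floor. The Il1a/Hmox1 class had 1690 UMIs in 62 metformin cells and 908 UMIs in 85 control cells, and after thinning 43.5% of metformin cells and 33.3% of control cells had a UMI. The ratio was 1.60 without the 10 richest cells. Homeostatic microglia had 247 CPM in metformin and 198 CPM in control (ratio 1.25), and the C4b/Ccl12 cluster had 652 CPM in metformin and 581 CPM in control (ratio 1.12). Arg1/Spp1 macrophages had 886 CPM in metformin and 591 CPM in control, a ratio of 1.499 that lay just under the rule and was 1.57 without the richest cell of each library. The Stard9/Ly6i cluster went the other way, with 357 CPM in metformin and 483 CPM in control (ratio 0.739).

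The balance of the neighbouring genes Cxcl9 and Cxcl10 was thus set very differently by class. Over all myeloid cells there were 0.654 Cxcl9 UMIs per Cxcl10 UMI in metformin and 0.576 in control. cDC1 had 5.54 per Cxcl10 UMI in metformin and 9.48 in control, while homeostatic microglia had 0.0057 in metformin and 0.0251 in control. The Stard9/Ly6i cluster had 3.31 in metformin and 1.28 in control, and the Il1a/Hmox1 microglial cluster 0.107 in metformin and 0.0341 in control. Some of these quotients rest on few cells. The control value of cDC1 is 275 Cxcl9 UMIs over 29 Cxcl10 UMIs. A single cell held most Cxcl9 UMIs in control cDC1 and in each library of the Il1a/Hmox1 cluster. Within Arg1/Spp1 macrophages, cells thinned to 2000 UMIs with both genes made up 21.5% of metformin cells and 14.9% of control cells. The products of the single shares were 22.2% in metformin and 14.2% in control, so in this class the genes were found together about as often as their separate shares give. Over all myeloid cells, which pool the classes, the genes were found together more often than that. Cells with both made up 5.03% in metformin and 4.73% in control, against products of 2.79% in metformin and 2.05% in control.

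Some Cxcl10 was also read in lymphocytes, with 1283 UMIs in metformin and 1542 UMIs in control. After thinning, a Cxcl10 UMI was seen in 12.5% of metformin and 9.47% of control Klra1/Klra6 T cells, a T cell class with Ly49 receptor transcripts. In naive T cells, taken as a class that should lack the gene, the thinned share was 0.775% in metformin and 0.719% in control. The median depths were 8279 and 8074 UMIs for Klra1/Klra6 T cells and 7152 and 7149 UMIs for naive T cells (metformin and control). Transcripts of C1qa, a complement gene of microglia and macrophages used here to gauge free RNA, were in 19.03% of metformin and 20.1% of control Klra1/Klra6 T cells and in 18.6% of metformin and 17.7% of control naive T cells. Cxcl10 per C1qa UMI was 5.14 in metformin and 4.79 in control Klra1/Klra6 T cells, against 0.267 in metformin and 0.444 in control naive T cells. The C1qa shares were taken without thinning. Without thinning, a Cxcl10 UMI was in 26.3% of metformin and 19.3% of control Klra1/Klra6 T cells. In naive T cells it was in 5.43% of metformin and 3.55% of control cells. The part of free RNA in the Cxcl10 counts of lymphocytes was not tested.

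By the rule, Cxcl10 was lower in metformin in 3 of the 6 lymphocyte classes above the floor. Regulatory T cells, the Foxp3 class that restrains other T cells, had 59.1 CPM in metformin and 147 CPM in control (ratio 0.401; 2.31% called), and the ratio was 1.10 without the 10 richest cells of each library. CD8 T cells of the Ifit3/Gzmk class, led by interferon-response genes, had 71.1 CPM in metformin and 130 CPM in control (ratio 0.548; 3.01% called), and under a stricter cell filter the ratio was 0.986. Nr4a2/Nr4a3 T cells had 23.5 CPM in metformin and 81.5 CPM in control (ratio 0.289; 5.78% called), where 1 control cell held 73.9% of the control UMIs and the ratio without the richest cells was 0.906. Each of these 3 differences therefore hung on a few cells or on the cell filter. Cxcl9 and Cxcl16 were nearly missing from lymphocytes, with 57 and 61 UMIs in metformin and 40 and 50 UMIs in control.

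Cxcl16 was the most evenly detected ligand and the one that differed least within classes. A Cxcl16 UMI was seen in 62.0% of metformin and 53.9% of control myeloid cells, or in 32.3% of metformin and 29.2% of control cells after thinning. Arg1/Spp1 macrophages had 953 CPM in metformin and 1034 CPM in control (ratio 0.922, interval 0.862 to 0.986). Mature dendritic cells had 1189 CPM in metformin and 921 CPM in control, with a UMI in 100% of metformin and 97.7% of control cells. Homeostatic microglia were at the low end, with 71.0 CPM in metformin and 67.0 CPM in control. The other microglial clusters lay between, at 282 CPM in metformin and 227 CPM in control for Il1a/Hmox1 and at 238 and 189 CPM for C4b/Ccl12. cDC2 had 593 CPM in metformin and 624 CPM in control. Arg1/Spp1 macrophages, mature dendritic cells and cDC2 were thus above all 3 microglial clusters in both libraries.

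No class above the floor met the rule for Cxcl16 as counted here. Its 6 ratios ran between 0.780 in the Stard9/Ly6i cluster and 1.26 in the C4b/Ccl12 microglial cluster. The C4b/Ccl12 cluster had 1117 UMIs in metformin and 838 UMIs in control, a level of 238 CPM in metformin and 189 CPM in control. The Stard9/Ly6i cluster had 668 CPM in metformin and 856 CPM in control, and without the 10 richest cells of each library its ratio was 0.639 (interval 0.545 to 0.748), which meets the rule. Adam10 and Adam17, the genes of the proteases that cut CXCL16 loose, stood in myeloid cells at 104 and 86.8 CPM in metformin and at 126 and 103 CPM in control. Their ratios were 0.826 for Adam10 and 0.847 for Adam17, so neither was called.

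The receptors were almost confined to lymphocytes. Lymphoid classes held 91.3% of metformin and 93.8% of control Cxcr3 UMIs, and 96.8% of metformin and 97.4% of control Cxcr6 UMIs. The shares of homeostatic microglia with a UMI after thinning, a measure of background, were 0.198% in metformin and 0.916% in control for Cxcr3 and 0.395% in metformin and 0.393% in control for Cxcr6. Among myeloid cells, Cxcr3 stood out in cDC1, with 49 UMIs in 48 metformin cells and 20 UMIs in 17 control cells and a UMI in 24 of the metformin cells and 10 of the control cells. Cxcr6 had 0 UMIs in these cDC1 in both libraries, and the T cell gene Cd3e had 3 UMIs in metformin and 2 in control. Plasmacytoid dendritic cells, the main type I interferon producers, had 40 Cxcr3 UMIs in 35 metformin cells and 12 in 21 control cells, and Cxcr6 had 21 UMIs in metformin, 95.2% of them in 1 cell, and 0 in control. In these cells the T cell genes stood at 61.6 CPM in metformin and 3.46 CPM in control for Trac, 47.2 CPM in metformin and 10.4 CPM in control for Cd3d, and 30.8 CPM in metformin and 10.4 CPM in control for Cd3e, and their part in the receptor counts was not tested.

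**Figure D3:**
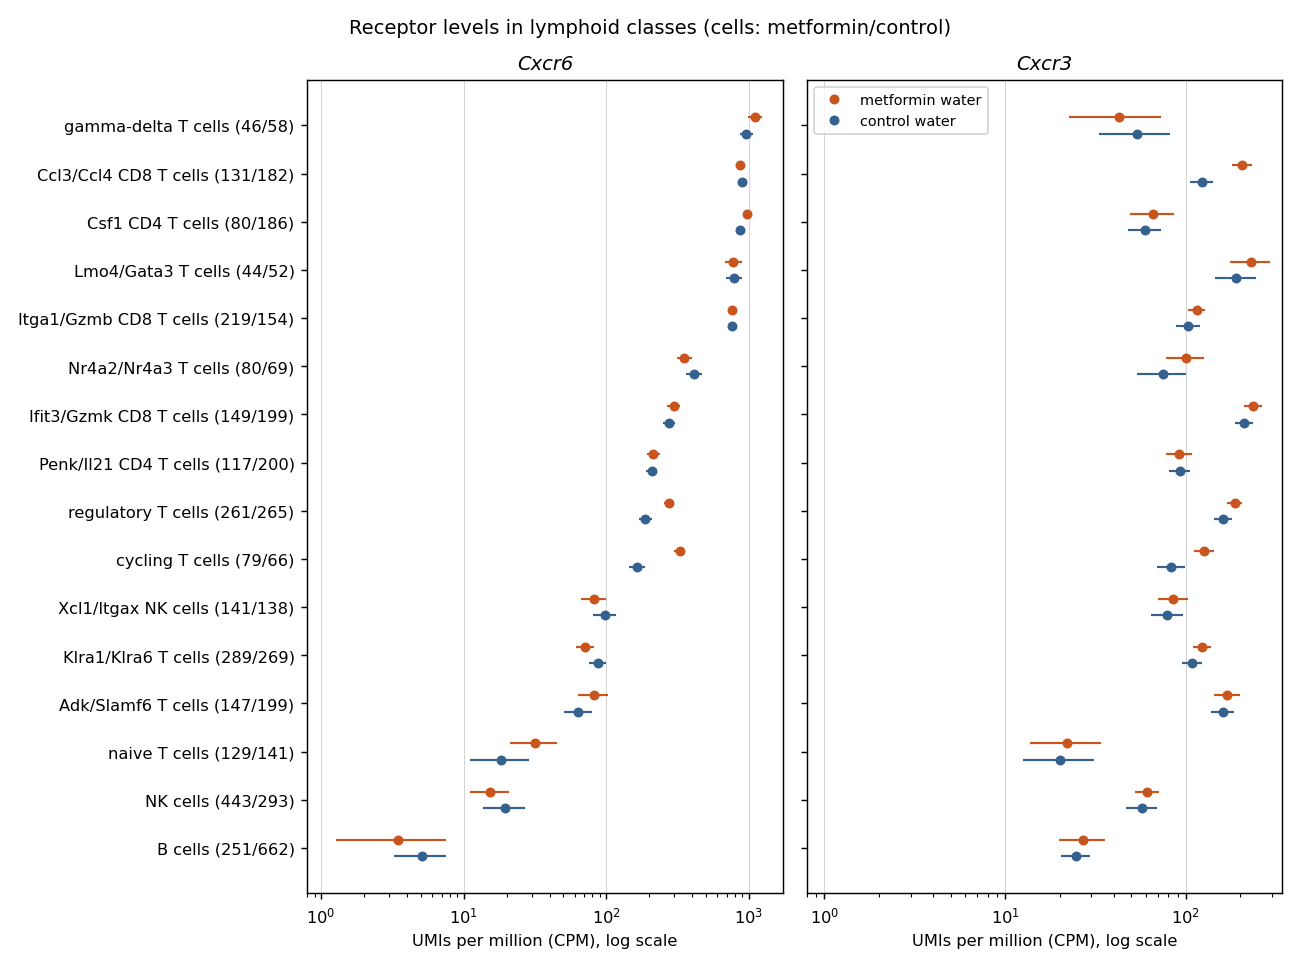
Levels of Cxcr3 and Cxcr6 in each lymphoid class with at least 15 cells in each library, in CPM on a log axis, metformin in orange and control in blue, with 95% counting intervals as bars. Cxcr3 runs from naive T cells at 22.1 and 20.2 CPM to Ifit3/Gzmk CD8 T cells at 236 and 210 CPM, and Cxcr6 from B cells at 3.44 and 5.07 CPM to γδ T cells at 1103 and 961 CPM (metformin and control).

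Over all lymphoid cells both receptors were a little higher in the metformin library, and part of this moved with the number of B cells, 251 in metformin and 662 in control. Cxcr3 stood at 114 CPM in metformin and 90.1 CPM in control lymphoid cells (ratio 1.27, interval 1.201 to 1.34), and Cxcr6 at 309 CPM in metformin and 269 CPM in control (ratio 1.15, interval 1.11 to 1.19). Neither was called, where the rule called 2.47% of genes. In T and NK cells alone, Cxcr3 had 2609 UMIs in metformin and 2197 in control (122 CPM in metformin, 105 CPM in control, ratio 1.16, interval 1.10 to 1.23). There Cxcr6 had 7160 UMIs in metformin and 6866 in control (334 CPM in metformin, 328 CPM in control, ratio 1.02, interval 0.984 to 1.05). Neither was called in T and NK cells either, where the rule called 1.01% of genes. After thinning, 20.4% of metformin and 18.8% of control T and NK cells had a Cxcr3 UMI, and 29.8% of metformin and 33.1% of control T and NK cells had a Cxcr6 UMI.

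Ranked by the lower of the 2 library levels among the classes with enough cells, Cxcr3 was highest in CD8 T cells of the Ifit3/Gzmk class and in regulatory T cells. Ifit3/Gzmk CD8 T cells had 236 CPM in metformin and 210 CPM in control (ratio 1.12), and regulatory T cells had 186 CPM in metformin and 161 CPM in control (ratio 1.16). Adk/Slamf6 T cells, a class of mostly CD4-bearing cells, came next with 170 CPM in metformin and 160 CPM in control, and Ccl3/Ccl4 CD8 T cells after them with 205 CPM in metformin, above regulatory T cells in that library, and 122 CPM in control. NK cells had 61.0 CPM in metformin and 57.0 CPM in control, and naive T cells and B cells lay below 30 CPM in both libraries. For 12 of the 19 neighbouring pairs in the order of the classes, the values of the libraries overlapped.

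Of 12 classes above the floor, Cxcr3 was called higher in 2 and lower in 0, and the 12 ratios ran between 0.988 and 1.68. In Ccl3/Ccl4 CD8 T cells, named for 2 inflammatory CC chemokines and with the checkpoint gene Pdcd1 in 62.6% of metformin and 68.1% of control cells, Cxcr3 had 244 UMIs in 131 metformin cells and 192 UMIs in 182 control cells. The levels were 205 CPM in metformin and 122 CPM in control (ratio 1.68, interval 1.39 to 2.04; 7.79% called), and 75.6% of metformin cells and 44.5% of control cells had a UMI. After thinning the shares were 30.8% in metformin (interval 22.98% to 39.5%) and 22.5% in control (interval 16.6% to 29.5%), and these intervals overlapped. The ratio was 1.74 without the 10 richest cells. Markers of other types moved in this class too: cell cycle genes summed to 85.8 CPM in metformin and 184 CPM in control, with 4 of 4 lower in metformin and none at 0 in both, and their part in the result was not tested. The level of Pdcd1 also differed, at 230.5 CPM in metformin and 398 CPM in control, and its part was not tested either.

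Cxcr6 showed a different order, with IL-17-type γδ T cells and effector-type T cells on top. γδ T cells, which carry a γ and δ chain receptor, had 1103 CPM in 46 metformin cells and 961 CPM in 58 control cells, with a Cxcr6 UMI in 100% of metformin and 98.3% of control cells. Csf1 CD4 T cells had 974 CPM in metformin and 869 CPM in control (ratio 1.12). Ccl3/Ccl4 CD8 T cells had 871 CPM in metformin and 887 CPM in control (ratio 0.982), and Itga1/Gzmb CD8 T cells, named for an integrin of tissue T cells and a granzyme, had 766 CPM in both libraries (ratio 0.9995, interval 0.933 to 1.07). Cxcr6 was among the 10 leading genes of the Ccl3/Ccl4 class, although it was not used to form it. The small Lmo4/Gata3 T cell class, which also had Cxcr6 among its leading genes, had 779 CPM of Cxcr6 in 44 metformin cells and 790 CPM in 52 control cells. NK cells, with 15.3 CPM in metformin and 19.4 CPM in control, and naive T cells, with 31.5 CPM in metformin and 18.3 CPM in control, were far lower.

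**Figure D4:**
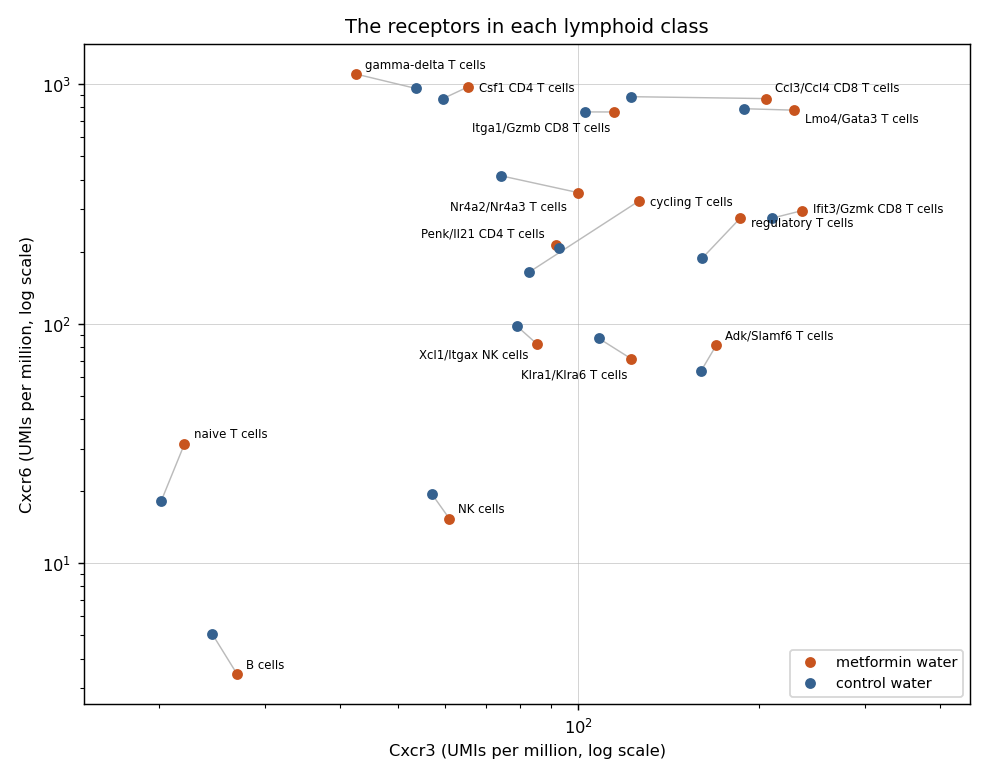
Cxcr6 against Cxcr3 in each lymphoid class with at least 15 cells in each library, both in CPM on log axes, with a grey line from the metformin point (orange) to the control point (blue) of a class. The γδ T and Csf1 CD4 T cells lie at high Cxcr6 and low Cxcr3 (42.5 and 53.5 CPM in γδ T cells, metformin and control), the Ifit3/Gzmk CD8 and regulatory T cells at high Cxcr3, and the Adk/Slamf6 T cells at 170 and 160 CPM of Cxcr3 but 81.4 and 63.7 CPM of Cxcr6.

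Set against each other, the receptors split the T cells by class. There were 14.9 Cxcr6 UMIs per Cxcr3 UMI in metformin and 14.6 in control Csf1 CD4 T cells, against 0.480 in metformin and 0.398 in control Adk/Slamf6 T cells. Regulatory T cells lay between, at 1.48 in metformin and 1.17 in control. Cells with both receptors after thinning made up 7.58% of 2309 metformin and 7.20% of 2402 control T and NK cells. The products of the single shares were lower there, at 6.065% in metformin and 6.21% in control. Within the 3 CD8 T cell clusters, cells with both receptors were 87 of 493 metformin and 86 of 516 control cells. The products of the single shares in these clusters gave 88.3 metformin and 82.6 control cells.

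Of 11 classes above the floor, Cxcr6 was called higher in 1 and lower in 0, and the 11 ratios ran between 0.821 and 1.99. The call was in cycling T cells, with 326 CPM in 79 metformin cells and 164 CPM in 66 control cells (ratio 1.99, interval 1.71 to 2.31; 6.91% called). Cxcr3 was called in the same class, at 126 CPM in metformin and 82.7 CPM in control (ratio 1.53, interval 1.22 to 1.91). The make-up of this class differed: Cd8a was detected in 58.2% of metformin and 31.8% of control cells, and its 2 CD8 markers summed to 1209 CPM in metformin and 568 CPM in control. Among cycling cells with a Cd8a UMI, 46 in metformin and 21 in control, the ratios were 1.23 for Cxcr6 and 1.35 for Cxcr3, under the rule. Among those without one, 33 in metformin and 45 in control, they were 1.91 for Cxcr6 and 1.82 for Cxcr3. Regulatory T cells had 275 CPM of Cxcr6 in metformin and 188 CPM in control (ratio 1.47, interval 1.29 to 1.68), just under the rule, and with median-of-ratios scaling the ratio was 1.51. In Xcl1/Itgax NK cells the Cxcr6 ratio was 0.842 as counted here and 0.528 (interval 0.324 to 0.844) without the 10 richest cells of each library, which meets the rule as lower.

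**Figure D5:**
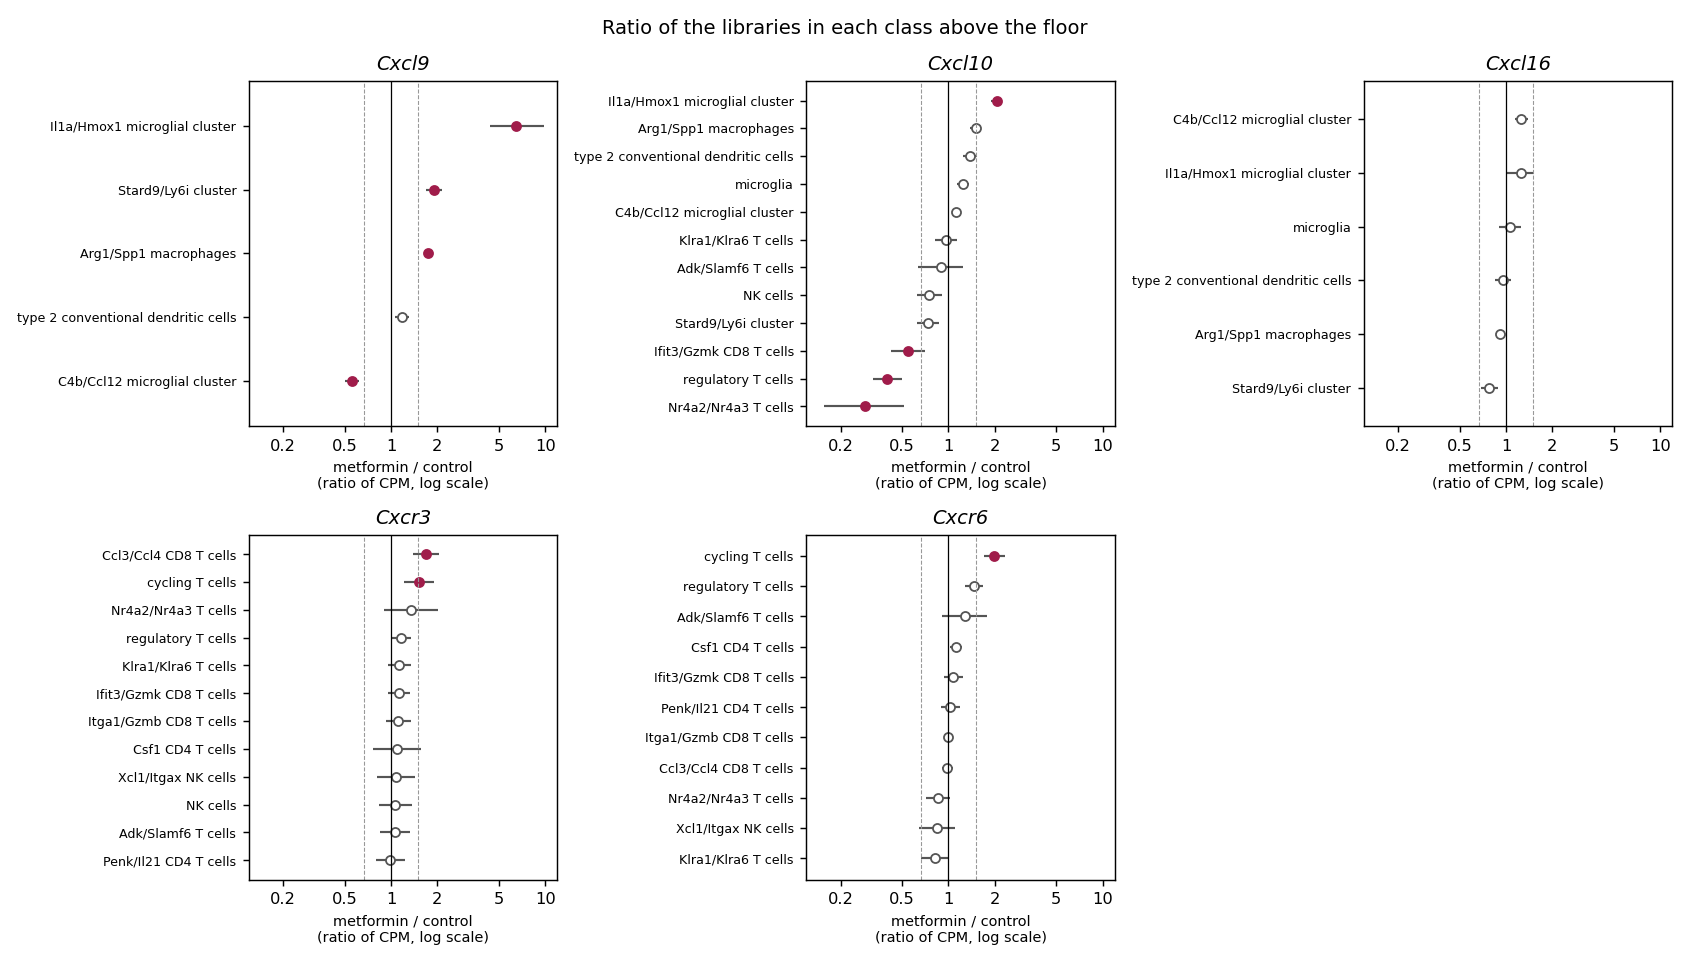
Ratio of metformin over control of each of the 5 genes in every class above the floor, on a log axis with 95% counting intervals as bars, dashed lines at the fold of the rule and filled points for calls. Cxcl9 spreads between 0.559 and 6.46 and Cxcl10 between 0.289 and 2.06, while all 6 Cxcl16 points lie within the dashed lines and 3 receptor points are filled, Cxcr3 at 1.68 and 1.53 and Cxcr6 at 1.99.

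The genes that act before and after these chemokines were read from lists. Of 16 genes that drive induction of CXCL9 and CXCL10, 14 were above the floor in myeloid cells, and 0 were called higher and 0 lower, with a median log2 ratio of −0.04 beside −0.03 over all 3057 genes above the floor. Irf1, an interferon-induced transcription factor, stood at 161 CPM in metformin and 158 CPM in control myeloid cells (ratio 1.02). Ifngr1, a chain of the interferon γ receptor, stood at 397 CPM in metformin and 469 CPM in control (ratio 0.847). Ifng itself, in T and NK cells, stood at 217.1 CPM in metformin and 216.5 CPM in control (ratio 1.002). There 10 of the 16 genes were above the floor and again 0 were called in either direction.

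In single classes some genes of this list were called. The single class with the most calls was Csf1 CD4 T cells, where 5 of 8 were lower in metformin and 0 higher, with a median log2 ratio of −0.76 beside −0.08 over all 2757 genes above the floor, of which 9.25% were called. There Ifng stood at 283 CPM in metformin and 560 CPM in control (ratio 0.506), Ifngr1 at 243 CPM in metformin and 496 CPM in control (ratio 0.489), and Irf9, a partner in the interferon-response complex, at 54.1 CPM in metformin and 106 CPM in control (ratio 0.510). This class had 80 metformin cells and 186 control cells. Over both CD4 T cell clusters together 2 of 9 were called, Ifngr1 (ratio 0.640) and Irf9 (ratio 0.626), both lower, where 2.86% of genes were called. Arg1/Spp1 macrophages, where Cxcl9 was higher, had 1 of 13 genes called, near the 7.19% of all genes, namely Nfkb1, a subunit of NF-κB, at 233 CPM in metformin and 150 CPM in control (ratio 1.56). In the same cells Irf1 stood at 172 CPM in metformin and 220.4 CPM in control (ratio 0.780). Cxcl9 was also called higher in 2 other classes. Of these, the Stard9/Ly6i cluster had 0 of 12 list genes higher and 1 lower, where 7.94% of genes were called. The Il1a/Hmox1 microglial cluster had 0 of 13 higher and 1 lower, where 8.9% of genes were called. Cycling T cells had 2 of 9 called, where 6.91% of genes were called, with Ifng at 280 CPM in metformin and 136 CPM in control (ratio 2.06) and the type I interferon receptor gene Ifnar1 at 36.7 CPM in metformin and 62.1 CPM in control (ratio 0.592). Regulatory T cells had 2 of 12 called, where 2.31% of genes were called, with Ifng at 55.4 CPM in metformin and 30.5 CPM in control (ratio 1.81) and the receptor kinase gene Tyk2 at 31.4 CPM in metformin and 53.03 CPM in control (ratio 0.592).

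Of the other lists, Cxcl11, the gene of a further CXCR3 ligand, was not among the genes counted, and GENCODE vM21 labels it a polymorphic pseudogene in the mouse. Ccl21a had 0 UMIs in the large groups. Pf4, another CXCR3 ligand, was called higher in Arg1/Spp1 macrophages, at 107 CPM in metformin and 62.9 CPM in control (ratio 1.69; 7.19% called). Dpp4, whose product trims CXCR3 ligands, was called higher in Ccl3/Ccl4 CD8 T cells, at 74.0 CPM in metformin and 47.1 CPM in control (ratio 1.57; 7.79% called). Of 6 genes of receptor signalling, 6 were above the floor in myeloid cells and 5 in T and NK cells, and 0 were called in either group. Of the transcription factors tied to the receptors, Eomes (ratio 1.12) and Runx3 (ratio 1.06) were above the floor in T and NK cells and neither was called. Among 9 genes of tissue residence and egress, Ccr7, the receptor that guides cells to lymph nodes, was called in both groups. It stood at 141 CPM in metformin and 75.8 CPM in control myeloid cells (ratio 1.87, with 1.67% of genes called). In T and NK cells it stood at 38.1 CPM in metformin and 66.4 CPM in control (ratio 0.573, with 1.01% of genes called). Ccr7 was a leading gene of mature dendritic cells (65 in metformin, 43 in control) and of naive T cells (129 in metformin, 141 in control). The part of these classes in both Ccr7 values was not tested.

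Across the 40 sums of 20 classes and 2 libraries, the genes whose log2 levels went most closely with each member are named by rank. For Cxcl9 these were Ptgs2 (Pearson r 0.97), Gpr35, Cxcl16, Tnfaip2 and Bcl2a1a. For Cxcl10 they were Bach1 (r 0.92), Nfe2l2, Ccrl2, Tnfrsf1a and Cebpb, and for Cxcl16 they were Bcl2a1a (r 0.99), Csf2rb2, Slamf8, Lyz2 and Tnfaip2. For Cxcr3 they were Zdhhc18 (r 0.94), Cers4, Gimap7, Ptpn22 and Gimap4, and for Cxcr6 they were Thy1 (r 0.94), Gstp3, Cd3g, Cd226 and Rgs16. The sums of a library share its depth and free RNA, so these values are descriptions over 3213 compared genes.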

How the data were processed

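UMI counts per gene and barcode were deposited by the authors as matrices of 31053 genes in 5473 metformin and 6174 control barcodes. Cell Ranger, Seurat and build mm10 are named per the submitters' processing notes, and the matrix software version was 3.0.0 per the file headers. How reads were aligned, and to which annotation, is not given in the sources used here.

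Barcodes with under 300 detected genes or over 10% mitochondrial UMIs were left out, as were doublets called by Scrublet in scanpy 1.11.5 (37 metformin and 62 control cells). Leiden clustering (leidenalg 0.10.2) of both libraries together used 2000 variable genes, 30 components and 15 neighbours, at resolution 1.0 and, for lymphoid cells, 1.5. The 5 genes and interferon, hypoxia, cycle and stress genes were kept out of it. Classes were rebuilt and may differ from the study's. The libraries shared 8 barcode sequences. Summed UMIs carry exact Poisson intervals, ratios exact conditional intervals and shares exact Clopper-Pearson intervals. Shares were also taken after thinning cells to 2000 UMIs, leaving out shallower cells (21 metformin and 44 control myeloid cells). Named genes were the 5 members everywhere and, per list, up to 4 with the interval farthest from 1. One gene that the rule names is not reported here. The members and gene lists were chosen with earlier results of these data known. The rule of size was tested on simulated counts with counting error only, so that test cannot show how it does under spread between cells or mice.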

Additional observations from a re-analysis of the deposited data

Results flagged for a closer look

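Cxcl9 was higher in metformin in some myeloid classes and lower in another, and the difference between the classes was not tested. Its ratio was 1.90 in the Stard9/Ly6i cluster, 1.74 in Arg1/Spp1 macrophages and 6.46 in the Il1a/Hmox1 microglial cluster, and 0.559 in the C4b/Ccl12 microglial cluster. Without the 10 richest cells of each library, it was 1.03 in the Stard9/Ly6i cluster and 0.798 in the C4b/Ccl12 cluster, neither a call. It stayed at 1.64 in Arg1/Spp1 macrophages. In the Il1a/Hmox1 cluster, dropping the richest cell of each library left 33 metformin and 10 control UMIs and a ratio of 3.68. Cxcl10 was higher in metformin in the Il1a/Hmox1 microglial cluster, at a ratio of 2.06. It was lower in 3 T cell classes, at 0.401 in regulatory T cells, 0.548 in Ifit3/Gzmk CD8 T cells and 0.289 in Nr4a2/Nr4a3 T cells, and this difference between classes was not tested either. These 3 ratios hung on a few cells or on the cell filter. The regulatory T cell ratio was 1.10 without the 10 richest cells, and the Nr4a2/Nr4a3 ratio 0.906 without the richest cell. Under a stricter cell filter the Ifit3/Gzmk ratio was 0.986. In the barcodes left out by the cell filters, 867 in metformin and 739 in control, Cxcl16 had 137 UMIs in metformin and 60 in control (ratio 1.84, interval 1.35 to 2.53), a signal in data that no comparison above uses.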

How the results depend on the processing

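No paired analysis was possible because each group was 1 library. The ratios over all myeloid cells and over all lymphoid cells were recomputed under 50 alternatives, of which 33 stayed within the counting interval of the value reported. The others were these. For Cxcl9 (1.23 as reported) the ratio was 1.29 with called doublets kept, 1.29 at Leiden resolution 0.5, 1.29 with median-of-ratios scaling, 1.28 as a mean over cells and 1.19 at a fixed class mix. For Cxcl10 (1.08) it was 1.05 with a stricter cell filter, 1.14 with median-of-ratios scaling, 1.13 as a mean over cells and 1.198 at a fixed class mix. For Cxcl16 (1.16) it was 1.21 with median-of-ratios scaling and 0.978 at a fixed class mix, which lies below 1. For Cxcr3 (1.27) it was 1.18 at a fixed class mix and 1.16 without B cells. For Cxcr6 (1.15) it was 1.11 with a stricter cell filter, 1.07 as a mean over cells, 1.08 at a fixed class mix and 1.02 without B cells. The cause of each shift was not tested.

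Of 11 calls in single classes, 11 were kept with median-of-ratios scaling, 10 under the stricter filter and 10 without the richest cell of each library. Without the 10 richest cells 6 of the 9 calls that still had a ratio were kept, and Cxcl10 in regulatory T cells turned to a ratio of 1.10. Cxcr6 in cycling T cells was 3.39 without them. Cxcl9 in the Il1a/Hmox1 microglial cluster and Cxcl10 in Nr4a2/Nr4a3 T cells then had no control UMIs left. No ratio could be formed for these calls, so they were not among the 9. Under the stricter filter the rule was also met by Cxcl10 in NK cells (0.566), Adk/Slamf6 T cells (0.437) and the Stard9/Ly6i cluster (0.605), and by Cxcr6 in regulatory T cells (1.58). Without the 10 richest cells it was also met by Cxcl10 in Arg1/Spp1 macrophages (1.82) and the Stard9/Ly6i cluster (0.571), Cxcl16 in the Stard9/Ly6i cluster (0.639), and Cxcr6 in Xcl1/Itgax NK cells (0.528) and regulatory T cells (1.51), while Cxcl10 in NK cells turned to 1.23, no call. The choices of leaving out B cells, the 10 richest cells and the Cd8a split, counting the low-UMI clusters as myeloid, and leaving 5 myeloid markers out of the transcript gates were made after seeing the data. Depth limits the small classes, in which a few cells could hold most UMIs of a ligand.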

Other observations

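The left-out barcodes also held Cxcr6, at 183 CPM in metformin and 250 CPM in control (ratio 0.734), and Cxcl10, at 171 CPM in metformin and 167 CPM in control (ratio 1.02). Outside the named classes, a mixed myeloid cluster led by the T cell gene Trbc2 held 489 Cxcl9 UMIs in 38 metformin cells and 59 in 20 control cells. Fibroblasts held 128 Cxcl9 UMIs in 27 metformin cells and 2 in 22 control cells, with a UMI in 7.41% of metformin and 9.09% of control cells, and 1 metformin cell held 97.7% of the metformin UMIs.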
